A study of Mus musculus with 11 samples.

Results

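To investigate the p53 response in dystrophic muscle, the mRNA levels of 10 genes that the transcription factor p53 is known to activate were followed in the tibialis anterior (TA) of single mice. The genes were *Cdkn1a*, *Mdm2*, *Ccng1*, *Gadd45a*, *Bax*, *Phlda3*, *Sesn1*, *Sesn2*, *Trp53inp1* and *Eda2r*, taken by symbol as known p53 targets. No measured value enters that rule, although the set was chosen with earlier results of these data known. Each had 1 probe set of 25 to 34 probes, so the genes were covered by 10 of the 28350 probe sets of the array, and all 10 passed the filter on low signal (a mean intensity of at least 30 in at least 1 group).

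RNA from the TA was hybridised to Affymetrix Mouse Gene ST 1.1 arrays, 1 array for each of 11 male mice aged 14 weeks. The groups were 3 untreated wild-type mice of the C57/B10 strain (C57), 4 untreated *mdx* mice (C57/Bl10ScSn-Dmd mdx/J), which carry a nonsense mutation in the dystrophin gene, and 4 *mdx* mice injected once, at 12 weeks of age, into the tail vein with Pip6e-PMO at 12.5 mg/kg (treated). Pip6e-PMO is an antisense oligonucleotide joined to a cell-penetrating peptide, which removes the mutated exon from the dystrophin transcript so that protein can be made. The study reports that this single dose restored dystrophin only in part. The design holds no C57 mice given the conjugate and no *mdx* mice given saline or a control oligonucleotide, so an effect of restored dystrophin and an effect of the injected conjugate cannot be told apart. Levels are log2 array intensities, in which a difference of 1 is a doubling, and the level of one gene cannot be set against that of another because each probe set has its own response.

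The p53 protein is held at a low level in healthy cells by MDM2, which marks it for degradation, and accumulates when DNA is damaged or the cell is otherwise stressed. It then switches on genes that halt the cell cycle, repair DNA, limit oxidative damage or start cell death, and it also switches on *Mdm2*, which closes a negative feedback loop. *Cdkn1a* encodes p21, an inhibitor of cyclin-dependent kinases, which in muscle also marks the exit of myoblasts from the cell cycle and is induced there by signals other than p53.

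The p53 protein binds a pair of decamers known as the p53 response element. RefSeq promoter windows (GRCm38.p6, 250 bases before to 50 bases after a start site) were held for 9 of the 10 genes, in 11 windows, and none for *Trp53inp1*. Both strands of each window were searched for a complete element of 20 bases without a spacer, allowing at most 2 mismatches outside the fixed C and G of each decamer. Such a match was found for *Cdkn1a* and *Ccng1*, each with 1 mismatch, and 0.326% of all 32851 promoter windows held one. The matched stretches are shown because binding to such elements is how p53 acts on its targets; capitals mark the element and the lower case letters its flanks, 5′ to 3′ along the gene.
*Cdkn1a* (chr17:29090913-29090962, plus strand): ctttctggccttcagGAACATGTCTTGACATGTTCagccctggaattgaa
*Ccng1* (chr11:40755447-40755496, minus strand): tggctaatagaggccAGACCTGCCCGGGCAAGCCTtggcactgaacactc
The *Cdkn1a* element lay 51 bases before the more upstream of its 2 annotated start sites and 2841 bases before the other. The *Ccng1* element lay 195 bases before the start. Single perfect decamers were present for 6 of the 9 genes, in 1 window each of the 11, against 8.36% of all windows. They were not found in those of *Phlda3*, *Sesn2* and *Eda2r*, which says only that these letters are not in these windows. A match in a sequence is not a measurement of binding.

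*Cdkn1a* changed most. Its level in *mdx* muscle was 4.10 times that in C57 muscle, and after treatment it was 1.90-fold lower than in untreated *mdx* muscle while still 2.16-fold above C57. *Eda2r*, which encodes a TNF receptor family member that can signal cell death and has been tied to muscle wasting, was also higher in *mdx* than C57 muscle, by 1.76-fold, and did not pass the test between treated and untreated *mdx* mice. *Trp53inp1*, which encodes a stress protein of the nucleus and autophagosome, passed the test only in treated against C57 muscle (1.89-fold higher). The genes for the p53 regulator MDM2, the BCL2 family protein BAX and the sestrins passed the test in none of the comparisons.

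**Figure D1:**
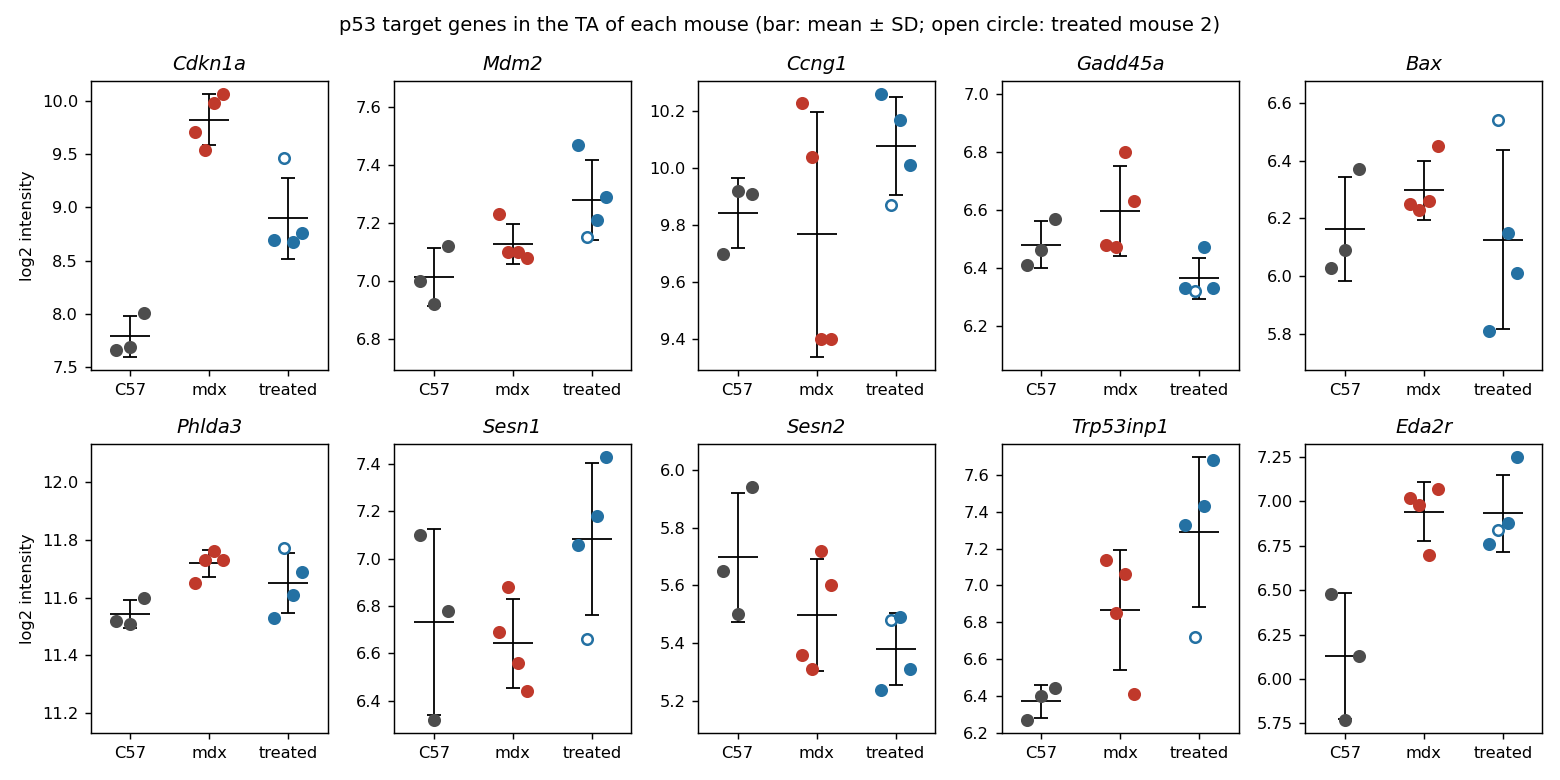
Log2 intensity (y axis, its range set separately for each gene) of the 10 p53 target genes in each of the 3 C57, 4 *mdx* and 4 treated mice, with 1 point per mouse, the group mean as a horizontal line and the SD as an error bar; the open circle is treated mouse 2. The groups stand fully apart for *Cdkn1a* alone, and the C57 mice lie below both other groups for *Cdkn1a* and *Eda2r*.

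The first comparison, *mdx* against C57, asked which p53 targets differ in muscle without dystrophin. Of the 10 genes, 2 were called (limma over all probe sets tested, two-sided, Benjamini-Hochberg adjusted p under 0.05), both of them higher, against 12% of the 14494 probe sets tested (7.06% higher and 4.96% lower). Their median difference was 0.12 on the log2 scale, against −0.01 over all probe sets tested. In the comparison of treated with untreated *mdx* mice, which asked what the conjugate changed, 1 of the 10 genes was called and it was lower, with 11.1% of all probe sets tested called (7.26% higher and 3.88% lower). In treated against C57, which asked what remained different from wild-type muscle, 3 genes were called, all higher, with 24.6% of all probe sets tested called (15.6% higher and 8.96% lower). At an unadjusted p under 0.05 the 10 genes gave 3, 3 and 5, against 24.9%, 31.5% and 39.7% of all probe sets tested. The counts thus lay near the background of the array in all 3 comparisons, and the description below is of single genes rather than of a shared change. The 3 comparisons share mice, so their values for a gene are not independent of each other.

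**Figure D2:**
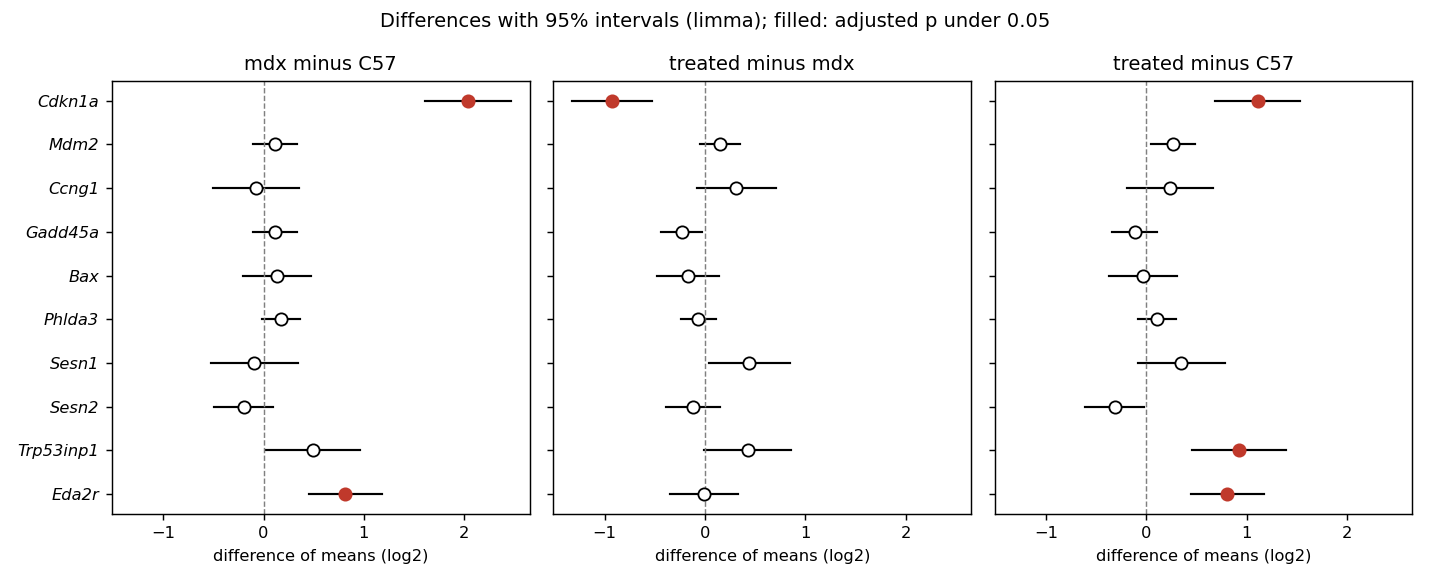
Difference of group means on the log2 scale (x axis) for each of the 10 genes, with its 95% interval from limma, for *mdx* less C57, treated less *mdx* and treated less C57 from left to right; filled points have an adjusted p under 0.05. *Cdkn1a* has the largest difference of the 10 genes in each panel, and most of the other intervals include 0.

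Among the genes of cell cycle arrest, *Cdkn1a* (chromosome 17, 29230720 to 29237667, plus strand, in the deposited annotation, which names no genome build) had levels of 7.66, 7.69 and 8.01 in the C57 mice, 9.71, 9.54, 9.98 and 10.06 in the *mdx* mice, and 8.69, 9.46, 8.67 and 8.76 in the treated mice. No group overlapped another, which held for 24.3% of all probe sets tested in *mdx* against C57 (13.1% higher), for 16% in treated against *mdx* (6.69% lower) and for 32% in treated against C57, and treated mouse 2 lay close to the lowest *mdx* mouse. The difference between *mdx* and C57 was 2.04 ± 0.20 on the log2 scale (SE, 4 against 3 mice; 95% interval 1.61 to 2.46; limma adjusted p = 5.26e-05). Only 60 of the 14494 probe sets tested rose more. The treated mice were lower than the *mdx* mice by 0.93 ± 0.18 (SE, 4 against 4 mice; difference −0.93, 95% interval −1.32 to −0.53; limma adjusted p = 0.0149), a fall exceeded by 91 probe sets. They were higher than the C57 mice by 1.11 (95% interval 0.68 to 1.53; limma adjusted p = 0.00267). Leaving out each mouse in turn kept all 3 calls, with a difference between treated and *mdx* of −1.12 to −0.85, the former without treated mouse 2. In that comparison the call was kept only narrowly without treated mouse 4, where the limma adjusted p rounded to 0.05.

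The methods' t-test, run on the same values and adjusted in the same way, kept the call of *Cdkn1a* in *mdx* against C57. It lost the call in treated against *mdx* (adjusted p = 0.11) and in treated against C57 (adjusted p = 0.0567), with the differences themselves unaltered. The study's rule for mRNAs changed in *mdx* muscle was a p under 0.01 by t-test with a 1.5-fold change. Its methods name a permutation setting and FDR correction for t-tests. The rule was taken here with an unadjusted p and no permutation. By that rule the t-test called *Cdkn1a* in each comparison.

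*Ccng1* encodes cyclin G1, a partner of a phosphatase that acts on MDM2. Its levels were 9.70, 9.92 and 9.91 in C57, 10.23, 10.04, 9.40 and 9.40 in *mdx*, and 10.26, 9.87, 10.17 and 10.01 in treated mice. The *mdx* mice fell into a higher and a lower pair on either side of the C57 mice, and the SD of 0.43 in *mdx* was the largest of the 10 genes in any group. None of its differences passed the test (−0.08 for *mdx* less C57, 0.31 for treated less *mdx* and 0.23 for treated less C57; limma adjusted p = 0.872, 0.263 and 0.391).

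*Gadd45a* encodes a growth arrest protein that also takes part in DNA demethylation and is induced in denervated muscle. It lay between 6.41 and 6.57 in C57, 6.47 and 6.80 in *mdx*, and 6.32 and 6.47 in treated mice. Its difference between treated and *mdx* mice was −0.23, with an unadjusted p of 0.0293 and a limma adjusted p of 0.117, and the groups met at 6.47.

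For the feedback regulator *Mdm2* the levels were 7.00, 6.92 and 7.12 in C57, 7.23, 7.10, 7.10 and 7.08 in *mdx*, and 7.47, 7.15, 7.21 and 7.29 in treated mice. All 4 treated mice lay above the C57 mice, as did 17.9% of all probe sets tested, and the *mdx* mice overlapped both groups. The difference between treated and C57 mice was 0.27 (limma adjusted p = 0.068), and without treated mouse 2 it was 0.31 (limma adjusted p = 0.033). In *mdx* against C57 it was 0.11 (limma adjusted p = 0.544).

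Among the genes tied to cell death, *Eda2r* (chromosome X, 94531258 to 94572511, minus strand, in the deposited annotation) had levels of 6.48, 5.77 and 6.13 in C57, 7.02, 6.98, 6.70 and 7.07 in *mdx*, and 6.76, 6.84, 6.88 and 7.25 in treated mice. Every *mdx* mouse lay above every C57 mouse, as for 13.1% of all probe sets tested. Every treated mouse did too, as for 17.9%, and the *mdx* and treated mice ran through each other. The difference between *mdx* and C57 was 0.82 ± 0.17 (SE, 4 against 3 mice; 95% interval 0.45 to 1.18; limma adjusted p = 0.00786), and that between treated and C57 was 0.81 (95% interval 0.44 to 1.17; limma adjusted p = 0.00626). Between treated and *mdx* mice the difference was −0.01, with a 95% interval of −0.35 to 0.33 (limma adjusted p = 0.972). The call in *mdx* against C57 was weakest without C57 mouse 2, the lowest mouse (difference 0.64, limma adjusted p = 0.0425). The methods' t-test lost it after adjustment (adjusted p = 0.0847) and kept it at an unadjusted p under 0.01 with a 1.5-fold change. In treated against C57 that test lost the call by both rules (adjusted p = 0.0821).

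*Trp53inp1* had levels of 6.27, 6.40 and 6.44 in C57, 7.14, 6.85, 7.06 and 6.41 in *mdx*, and 7.33, 6.72, 7.43 and 7.68 in treated mice. The treated mice all lay above the C57 mice, as for 17.9% of all probe sets tested. In *mdx*, mouse 4 was at the level of C57, and treated mouse 2 was the lowest of its group. The difference between treated and C57 mice was 0.92 (95% interval 0.45 to 1.39; limma adjusted p = 0.0104), a call that the methods' t-test lost (adjusted p = 0.0821). In *mdx* against C57 it was 0.49 (95% interval 0.03 to 0.96; limma adjusted p = 0.172). In treated against *mdx* it was 0.42 (95% interval −0.01 to 0.86; limma adjusted p = 0.164), and without treated mouse 2 it was 0.62 (limma adjusted p = 0.0178).

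*Phlda3*, which encodes a repressor of AKT, lay between 11.51 and 11.60 in C57, 11.65 and 11.76 in *mdx*, and 11.53 and 11.77 in treated mice. Its 4 *mdx* mice lay above the C57 mice, as did 13.1% of all probe sets tested, yet the difference was only 0.17 and missed the test (limma adjusted p = 0.242). *Bax*, which encodes a protein that opens the outer mitochondrial membrane, lay between 6.03 and 6.37 in C57, 6.23 and 6.45 in *mdx*, and 5.81 and 6.54 in treated mice. Its groups overlapped in all 3 comparisons, and the largest of its differences was −0.17, in treated minus *mdx* (limma adjusted p = 0.442), which was −0.31 without treated mouse 2 (limma adjusted p = 0.0639) and −0.06 without treated mouse 1.

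The sestrins encode stress proteins that restrain mTORC1 signalling, as sensors of amino acids among other routes. *Sesn1* had levels of 7.10, 6.32 and 6.78 in C57, 6.69, 6.88, 6.56 and 6.44 in *mdx*, and 7.06, 6.66, 7.18 and 7.43 in treated mice. The C57 mice spread over much of the range of the other groups, and treated mouse 2 was again at the *mdx* level. The difference between treated and *mdx* mice was 0.44 (95% interval 0.04 to 0.85; limma adjusted p = 0.131), and without treated mouse 2 it was 0.58 (limma adjusted p = 0.0294). *Sesn2* lay between 5.50 and 5.94 in C57, 5.31 and 5.72 in *mdx*, and 5.24 and 5.49 in treated mice, so that the treated mice lay below the C57 mice, as did 14.1% of all probe sets tested. The difference between those groups was −0.32 (limma adjusted p = 0.101).

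Treated mouse 2 thus recurred in these results. In 8 of the 10 genes it was closer to the *mdx* mean than the mean of the other treated mice was, the exceptions being *Gadd45a* and *Eda2r*. Some of these gaps were small, as for *Sesn2* (−0.02 against −0.15 from the *mdx* mean). The same count was not made over all probe sets, so it is not read as a trait of these genes. For *Cdkn1a* treated mouse 2 was at 9.46 against a mean of 8.71 in the other treated mice. Over all probe sets tested its differences from the group mean had a median absolute deviation of 0.28 on the log2 scale. That of the other 10 mice was 0.12 to 0.19, each value being scaled to match an SD. Without treated mouse 2, 3 of the 10 genes were called in treated against *mdx* (*Cdkn1a* lower, *Sesn1* and *Trp53inp1* higher), in place of 1. The share of all probe sets called in that comparison meanwhile went from 11.1% to 28.4%.

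**Figure D3:**
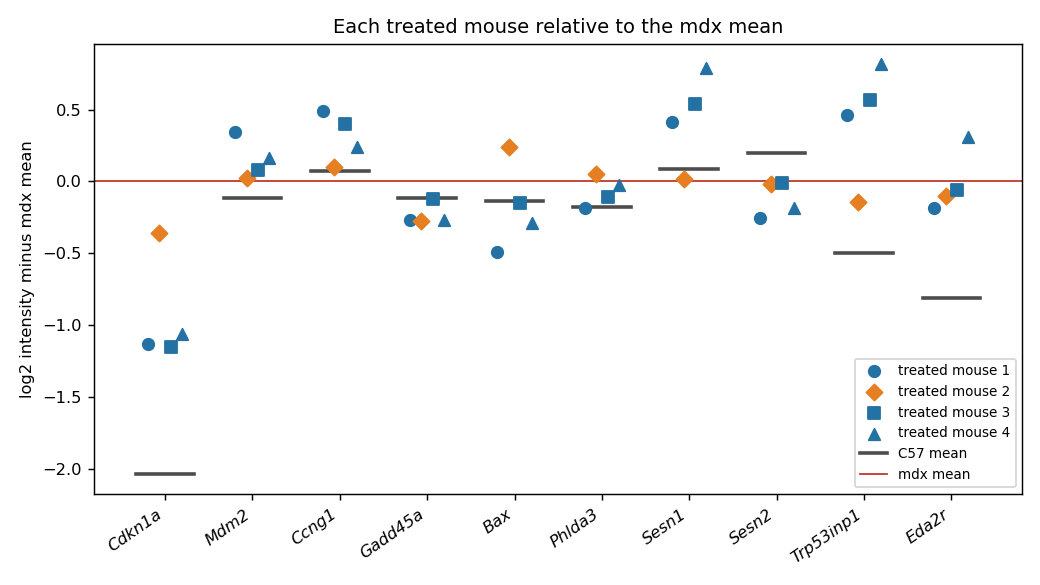
Log2 intensity of each treated mouse minus the mean of the 4 *mdx* mice (y axis) for the 10 genes (x axis), with the *mdx* mean as the line at 0 and the C57 mean as a grey bar; diamonds mark treated mouse 2. For *Cdkn1a* treated mice 1, 3 and 4 lie near −1.1 and treated mouse 2 at −0.36, while for *Trp53inp1* and *Sesn1* treated mice 1, 3 and 4 lie above the *mdx* mean and treated mouse 2 near it.

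To place the 10 genes in their pathway, 11 lists of related genes were examined, holding 119 different genes that passed the filter on low signal. Of the mRNAs for p53 and its regulators, 14 of 19 passed it. *Trp53* itself lay between 8.23 and 8.53 in C57, 8.39 and 8.60 in *mdx*, and 8.05 and 8.65 in treated mice, with differences of 0.14 in *mdx* minus C57 and −0.19 in treated minus *mdx* (limma adjusted p = 0.589 and 0.337), the latter being −0.31 without treated mouse 2 (limma adjusted p = 0.0458). The mRNA level of *Trp53* does not report the level of the protein, which is set largely by degradation. *Mdm4*, the partner of *Mdm2* in restraining p53, differed by −0.12 and 0.35 (limma adjusted p = 0.649 and 0.0872), with 7.30, 6.74, 7.28 and 7.34 in the treated mice against 6.69 to 6.88 in *mdx*. It was called in treated against *mdx* without treated mouse 2 (0.49, limma adjusted p = 0.00386) and with array weights (0.45, limma adjusted p = 0.00289). The genes of this list called in *mdx* against C57 were *Cdkn2a* (0.96, limma adjusted p = 5.65e-04) and the p53 relative *Trp63* (0.39, limma adjusted p = 0.0416), both higher, and in treated against *mdx* the DNA repair kinase gene *Prkdc* (0.56, limma adjusted p = 0.0336). The call of *Trp63* was lost on leaving out any of 7 mice, and that of *Prkdc*, whose C57 and *mdx* means were under the filter, on leaving out any of 5.

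Of 39 other genes known as p53 targets, 28 passed the filter. In *mdx* against C57, 2 were higher, 2 lower and 24 were not called, and the list's median difference was 0.01 on the log2 scale. Those higher were *Apaf1*, the scaffold of the apoptosome (0.64, limma adjusted p = 0.00351), and *Trp53i11* (0.77, limma adjusted p = 0.014), whose call was lost on leaving out either of 2 mice. Those lower were *Perp*, a desmosomal protein gene (−0.88, limma adjusted p = 0.0022; its *mdx* mean intensity of 28.8 lay below the filter), and *9630033F20Rik*, a former name of *Tigar*, which restrains glycolysis (−0.58, limma adjusted p = 0.00858).

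Between treated and *mdx* mice, 3 of these 28 genes were higher and 2 lower, with a median difference of −0.05. The higher ones were the polo-like kinase gene *Plk2* (0.73, limma adjusted p = 0.03), the DNA damage sensor gene *Ddb2* (0.39, limma adjusted p = 0.0465) and *Apaf1* (0.37, limma adjusted p = 0.0421). The lower ones were *Sfn*, which encodes the cell cycle regulator 14-3-3 sigma (−0.42, limma adjusted p = 0.0453), and the lipid hydrolase gene *Abhd4* (−0.29, limma adjusted p = 0.0301). Each of these 5 calls was lost on leaving out at least 5 of the mice in turn. In treated against C57, 6 were higher and 6 lower, together 42.9% of the 28. Of all probe sets tested 24.6% were called there (15.6% higher and 8.96% lower). Other known targets, including *Bbc3*, *Pmaip1*, *Fas* and *Gdf15*, were below the filter in every group, so 11 of the 39 genes gave no test.

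**Figure D4:**
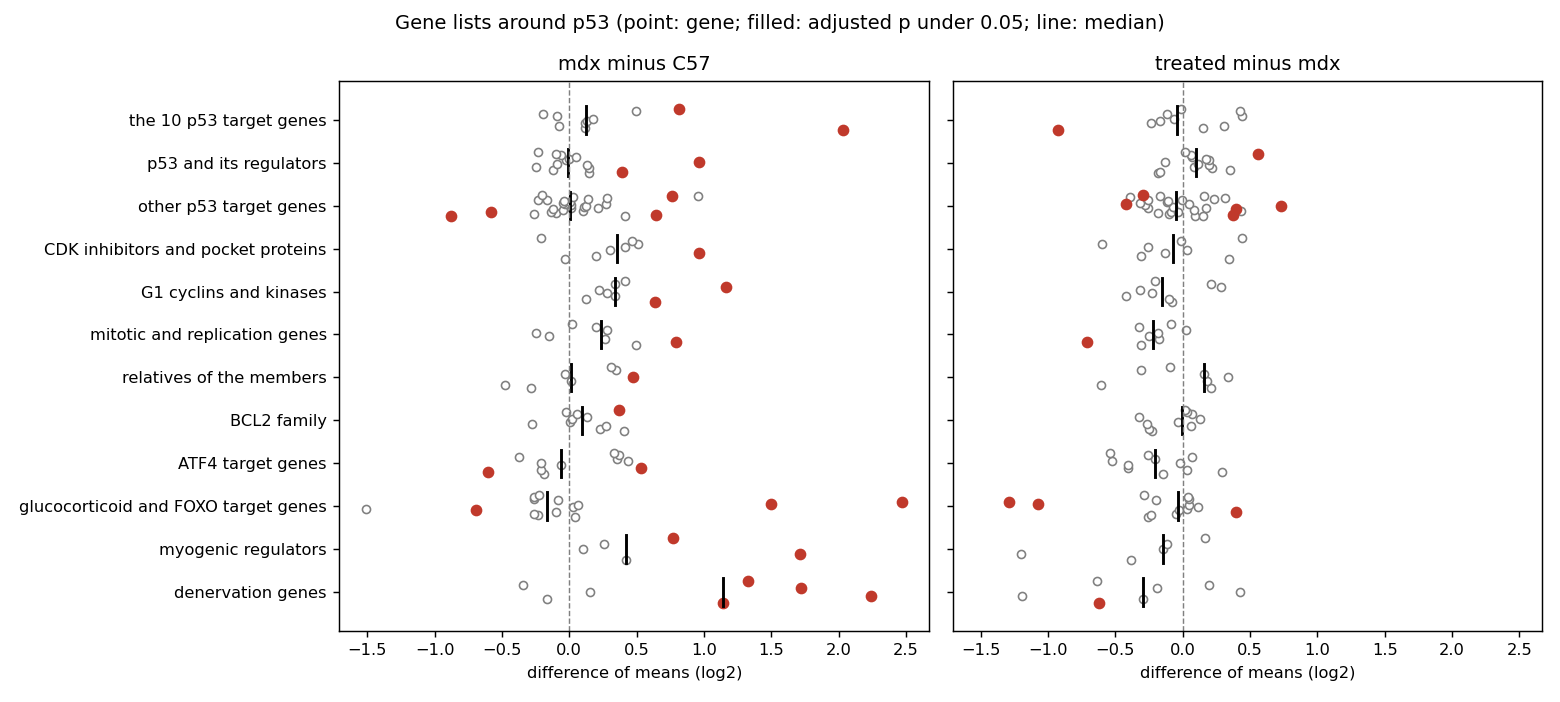
Difference of group means on the log2 scale (x axis) in *mdx* minus C57 and treated minus *mdx* for the 10 p53 target genes and for the tested genes of the 11 lists around p53 (y axis), with 1 point per gene, filled where the adjusted p was under 0.05, and the median of each list as a vertical line. *Cdkn1a* is the outermost of the 10 genes in both panels, and the medians of the regulators and of the other p53 targets lie near 0.

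*Cdkn1a* was also set beside the genes for other inhibitors of cyclin-dependent kinases and the pocket proteins, 8 of 9 of which passed the filter. In *mdx* against C57, 5 of the 8 had an unadjusted p under 0.05, against 24.9% of all probe sets tested. The list's median difference was 0.36 on the log2 scale, against −0.01 over all probe sets tested. Only *Cdkn2a*, which encodes p16 and the MDM2 inhibitor p19, was called after adjustment in that comparison. Its levels were 4.72, 4.51 and 4.22 in C57, 5.55, 5.52, 5.27 and 5.44 in *mdx*, and 5.16, 5.42, 5.27 and 5.41 in treated mice, and its C57 mean intensity of 22.6 was under the filter, which it passed through the dystrophic groups. Treated and *mdx* mice differed by −0.13 (limma adjusted p = 0.474). The paralogues of *Cdkn1a* differed little between *mdx* and C57, by −0.03 for *Cdkn1b* (p27) and 0.20 for *Cdkn1c* (p57) (limma adjusted p = 0.925 and 0.295). Between treated and *mdx* mice they differed by 0.35 and −0.31 (limma adjusted p = 0.0745 and 0.065). Without treated mouse 2 both were called, *Cdkn1b* at 0.41 (limma adjusted p = 0.0265) and *Cdkn1c* at −0.33 (limma adjusted p = 0.0413), as they were with array weights (limma adjusted p = 0.00873 and 0.0482).

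Of the G1 cyclins and kinases, 2 of 8 were called in *mdx* against C57, both higher. They were *Cdk6* (1.17, limma adjusted p = 4.82e-04) and *Ccnd1*, which encodes cyclin D1 (0.64, limma adjusted p = 0.0389), whose call was lost on leaving out any of 6 mice. In treated against *mdx* none was called, with 1 at an unadjusted p under 0.05. The mitotic and replication genes were mostly at low signal, with 10 of 18, including *Mki67*, *Top2a*, *Cdk1* and *Ccnb1*, below the filter in every group. *Plk1* was called in 2 comparisons, higher in *mdx* than C57 mice (0.79, limma adjusted p = 0.0353) and lower after treatment (−0.71, limma adjusted p = 0.0442), and both calls were lost on leaving out at least 7 of the mice in turn. Its C57 and treated means were under the filter. In treated against C57, 2 of the 8 tested genes of this list were called, *Mcm2* (−0.40, limma adjusted p = 0.00915) and *Mcm3* (−0.43, limma adjusted p = 0.0151), both lower. Of the 8 G1 cyclins and kinases, 3 were called there, all higher. They were *Cdk6* (1.45, limma adjusted p = 1.43e-04), *Pcna* (0.55, limma adjusted p = 0.0134) and *Ccnd1* (0.55, limma adjusted p = 0.0427). The call of *Pcna* was lost on leaving out 1 mouse and that of *Ccnd1* on leaving out any of 8. Of all probe sets tested 24.6% were called in that comparison.

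Of the relatives of the 10 genes, only *Sesn3* was called in *mdx* against C57 (0.48, limma adjusted p = 0.0479), and of 10 tested BCL2 family genes only *Bcl2l11*, which encodes the cell death protein BIM (0.37, limma adjusted p = 0.0188). The first of these calls was lost on leaving out any of 8 mice and the second on leaving out any of 3.

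Several of the genes here respond to stress signals other than p53, so targets of such signals were examined too. Of 11 ATF4 targets, the stress-induced transcription factor gene *Ddit3* was lower (−0.60, limma adjusted p = 0.00859) and the asparagine synthetase gene *Asns* higher (0.53, limma adjusted p = 0.0313; lost on leaving out any of 4 mice) in *mdx*, and none was called in treated against *mdx*, with 3 at an unadjusted p under 0.05. Of 14 glucocorticoid and FOXO targets, the metallothionein genes *Mt2* (2.47, limma adjusted p = 3.77e-04) and *Mt1* (1.49, limma adjusted p = 0.0086) were higher and the transcription factor gene *Klf15* lower (−0.69, limma adjusted p = 3.44e-04) in *mdx*. After treatment, *Mt2* was lower by 1.29 (difference −1.29, limma adjusted p = 0.0211) and *Mt1* by 1.07 (difference −1.07, limma adjusted p = 0.0377), while *Klf9*, also a transcription factor gene, was higher (0.39, limma adjusted p = 0.0294). These 3 calls were lost on leaving out 4, 7 and 5 of the mice in turn.

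Of 5 tested myogenic regulators, the transcription factor genes *Myog* (1.71, limma adjusted p = 0.0206) and *Mef2c* (0.77, limma adjusted p = 0.0115) were higher in *mdx*, calls lost on leaving out any of 3 mice and 1 mouse. None was called in treated against *mdx*, with 1 at an unadjusted p under 0.05. *Myog* differed there by −1.20 (limma adjusted p = 0.0664; −1.68 without treated mouse 2, limma adjusted p = 0.00199), with 5.08, 7.00, 5.22 and 4.97 in the treated mice, treated mouse 2 lying within the *mdx* range of 6.34 to 7.22. Of 7 tested genes known to rise on denervation, 4 were higher in *mdx*, namely the acetylcholine receptor subunit genes *Chrng* (2.24, limma adjusted p = 0.0063, its C57 mean under the filter) and *Chrna1* (1.14, limma adjusted p = 0.002), the transcription factor gene *Runx1* (1.72, limma adjusted p = 2.14e-05) and the adhesion molecule gene *Ncam1* (1.32, limma adjusted p = 0.00235). After treatment *Chrna1* was lower than in *mdx* (−0.62, limma adjusted p = 0.0388), a call lost on leaving out any of 8 mice. Over the 11 lists, 22 of 119 genes were called in *mdx* against C57 and 11 in treated against *mdx*. Of all probe sets tested 12% and 11.1% were called. Of the list calls, 13 of 22 and 0 of 11 held whichever mouse was left out. How many calls held over all probe sets was not counted, so these are not traits of the lists. The methods' t-test kept 10 of those 13, losing *Perp*, *Ddit3* and *Mt1*, and it kept 11 of the 22 and 1 of the 11 (*Abhd4*).

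Marker mRNAs of other cell types differed between the groups along with *Cdkn1a*. Of 11 tested macrophage markers 10 were higher in *mdx* than in C57. The summed intensity of all 12 listed, *Cd163* below the filter among them, was 2091 to 2509 in C57 mice and 5198 to 7772 in *mdx* mice. After treatment it was 3387 to 5388, with the highest treated value in treated mouse 2. Probe sets of high intensity weigh most in such sums. All 7 markers of regenerating fibres were higher in *mdx*, with sums of 3052 to 4226 in C57 mice, 8222 to 10537 in *mdx* mice and 5394 to 8762 after treatment, the highest treated value again in treated mouse 2. In treated against *mdx*, 4 macrophage markers were lower and 1 higher, and 2 regenerating fibre markers were lower. Their part in the levels of *Cdkn1a*, *Eda2r* and *Trp53inp1* was not tested. In whole muscle, fewer cells of a type and less RNA per cell cannot be told apart.

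The other lists moved less in *mdx* against C57. Of 9 fibroblast and matrix markers 4 were higher, of 4 Schwann cell markers 2 were lower, and none of the endothelial, adipocyte, blood or muscle fibre markers was called, with 1 endothelial marker and none of the others at an unadjusted p under 0.05. In treated against *mdx*, 4 of 5 adipocyte markers were lower and 2 of 6 endothelial markers higher. The muscle fibre markers had sums of 60668 to 64826 over all mice, and none of the 9 was called in any comparison, with 1 at an unadjusted p under 0.05 in treated against C57. All 8 T and B lymphocyte markers and the macrophage marker *Cd163* were below the filter in every group. *Dmd*, the mutated gene, lay between 5.77 and 5.87 in C57, 4.60 and 5.82 in *mdx*, and 5.51 and 6.34 in treated mice, and passed the test in none of the comparisons (limma adjusted p = 0.198, 0.142 and 0.961), so these levels do not check the labels.

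The genes whose levels followed *Cdkn1a* most closely were found by Pearson's r over the 11 mice, with 1 probe set for each of 11843 other genes, as a description and with no test. They were *Cpne2*, which encodes a calcium-dependent lipid-binding protein (r = 0.985), the complement factor B gene *Cfb* (0.972), the interleukin 4 receptor gene *Il4ra* (0.971), the chemokine gene *Cxcl16* (0.970) and *Stom*, which encodes stomatin (0.968). The 11 mice fall into 3 groups and share those group differences, so such values are not 11 independent points. *Cxcl16*, for example, lay at 5.64 to 5.99 in C57, 7.14 to 7.46 in *mdx*, and 6.47, 7.12, 6.69 and 6.37 in treated mice. *Cfb* lay at 6.26 to 6.49 in C57, 7.33 to 7.64 in *mdx*, and 6.70, 7.32, 6.86 and 6.72 in treated mice. Treated mouse 2 was the highest treated mouse for all 5 genes, as it was for *Cdkn1a*, a pattern that choosing genes by their likeness to *Cdkn1a* favours.

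**Figure D5:**
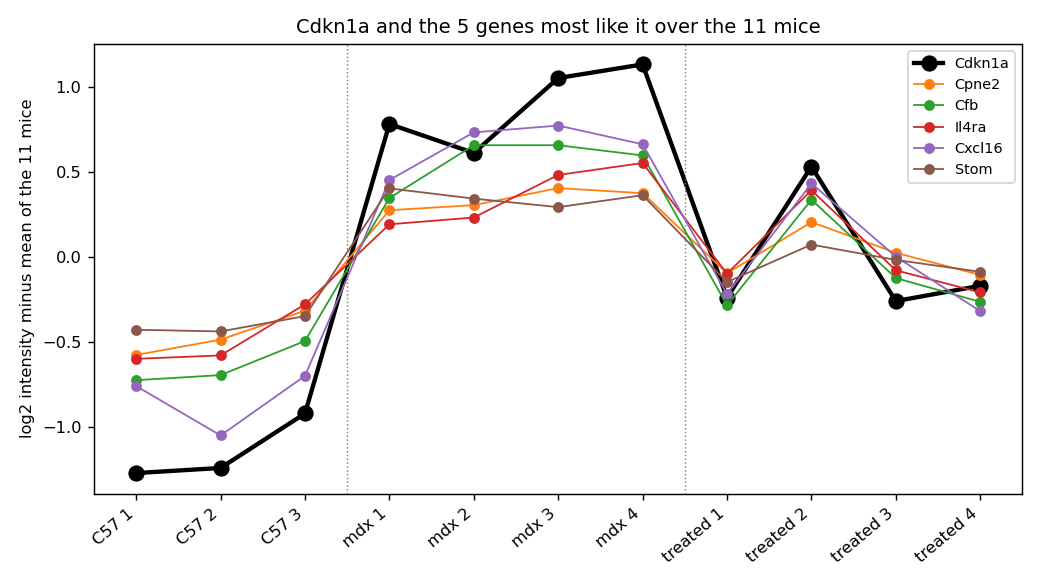
Log2 intensity minus the gene's mean over the 11 mice (y axis) in each mouse (x axis) for *Cdkn1a*, drawn as the thick black line, and for the 5 genes with the highest Pearson's r with it; dotted lines part the C57, *mdx* and treated mice. All 6 genes are lowest in C57 and highest in *mdx* on average, and treated mouse 2 stands above the other treated mice.

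When the group means were removed first, so that only differences between mice of one group counted, the closest genes were *Snx8*, *Ctnnbip1*, *Nfkb2*, *Rnasek* and *Mirlet7e* (r = 0.963 to 0.965). None of them is among the 10 p53 targets or the 5 genes above. Each ranking was cut at 5 genes, however, and by this second measure the 5 genes above had r of 0.597 (*Stom*) to 0.947 (*Il4ra*). Treated mouse 2 was the highest treated mouse for all 5 genes of the second ranking. For *Cdkn1a* it lay furthest of the 11 mice from its group mean (9.46 against 8.895), so choosing genes by this r favours such a pattern. Among the genes of the second ranking, *Nfkb2*, a subunit of the transcription factor NF-kappaB, was higher in *mdx* than in C57 (0.66, limma adjusted p = 0.0202). It was at 7.51 in treated mouse 2 against 7.08 to 7.45 in *mdx*.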

How the data were processed

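Per the labels, TA sections of each mouse gave DNase-treated total RNA for 1 array. The deposited values are linear intensity signals made by the authors with RMA (background correction, quantile normalization, probe set summary) in Affymetrix Expression Console; versions and the genome build are not given in the sources used here. Quantile normalization forces like distributions on the arrays, so a shift of most genes would not be seen. The median intensity per array was 27.47 to 28.64, and precision was limited by the 3 or 4 mice a group. The log2 of these values lay on steps of 0.01.

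Differences were fitted with limma 3.58.1 (R 4.3.3) over all 11 mice with a mean per group, on the 14494 probe sets with a mean intensity of at least 30 in at least 1 group, the cut-off of the study's methods. Tests were two-sided with Benjamini-Hochberg adjustment over all of them and called under 0.05. For a gene with several probe sets that of the highest mean signal was used. The fit was tested on simulated data in which all mice had the same spread for a given probe set. The wider spread of treated mouse 2 was not covered by that test. The 10 genes, the lists and the tests were chosen with earlier results of these data known. Outside the 10 genes, values were given for *Trp53*, *Mdm4*, *Cdkn1b*, *Cdkn1c* and *Ccnd1*, for up to 4 called genes of each list with the largest differences per comparison, and for the 5 genes most like *Cdkn1a* by each measure. Values of *Dmd*, *Abhd4*, *Mcm2*, *Mcm3* and *Pcna*, of treated mouse 2 and of list members named as below the filter stand outside that rule and were chosen after they were seen. Alternatives covered the test, the mice in the fit, the variance prior, array weights, the filter, the scaling, the probe sets of a gene, the replicate number and the call rule. The labels do not say whether the mice of a group were littermates.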

Additional observations from a re-analysis of the deposited data

Results flagged for a closer look

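In 4 of the 20 sets of 4 mice examined (10 genes in the *mdx* and the treated group), 1 mouse lay far from the other 3 by Dixon's gap test, which chance alone gives in about 1 of 20 sets. *Cdkn1a* in treated mouse 2 was at 9.46 on the log2 scale, above the other treated mice by 0.886 of the group's range. *Mdm2* in *mdx* mouse 1 was at 7.23 (0.867 of the range), *Gadd45a* in treated mouse 3 at 6.47 (0.933 of the range) and *Bax* in *mdx* mouse 4 at 6.45 (0.864 of the range).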

How the results depend on the processing

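The number of the 10 genes called was 2 in *mdx* against C57, 1 in treated against *mdx* and 3 in treated against C57. The methods' t-test gave 1, 0 and 0 after Benjamini-Hochberg adjustment, and the unequal-variance test 1, 0 and 0. The t-test at an unadjusted p under 0.01 with a 1.5-fold change gave 2, 1 and 1. Array weights gave 3 in treated against *mdx* and 5 in treated against C57. Leaving out each mouse in turn gave 2 to 2, 1 to 3 and 3 to 4 genes. In treated against *mdx*, 3 were called without treated mouse 2. *Sesn2* was lower in treated than in C57 mice when quantile normalization was repeated (−0.44, limma adjusted p = 0.0398). The other alternatives kept each count within 1.5 times, the filter and the median centring among them. The cause of the changes was not tested.

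Small differences that missed the test changed sign. With array weights *Sesn1* was at 0.117 and *Cdkn1b* at 0.055 in *mdx* minus C57, and *Eda2r* at 0.065 in treated minus *mdx*. With repeated quantile normalization *Phlda3* was at 0.015 in treated minus *mdx*, and with the mean of its probe sets *Cdkn1b* was at 0.030 in *mdx* minus C57. Over the fits without 1 mouse, *mdx* minus C57 ran from −0.230 to 0.047 for *Ccng1*, from −0.298 to 0.092 for *Sesn1* and from −0.102 to 0.063 for *Cdkn1b*. Treated minus *mdx* ran from −0.116 to 0.048 for *Eda2r*, and treated minus C57 from −0.173 to 0.070 for *Bax*.

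The replicate number as a block gave 2, 1 and 3 called genes and changed none of the counts. Same-numbered mice did not deviate together (correlations of −0.297 to 0.153), so the numbers are taken not to pair mice.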
